A study of Bos taurus with 106 samples.

Results

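Liver of dairy cows fed ad libitum was compared between day 1 after calving and day -14, 14 days before it, in 4 Holstein cows that were sampled on both days. These cows contributed 16 of the 106 arrays of the series and 8 of its 53 combinations of cow and day. The arrays were chosen by their labels alone: ad libitum feeding, day -14 or day 1, and a pairing of the 2 days by the number of the cow.

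The series followed hepatic transcripts of 8 Holstein cows before and after calving, with a 65-day dry period, at different levels of feed intake. All cows were given a moderate-energy diet of 1.60 Mcal/kg in the dry period. The ad libitum cows (6886, 7050, 7161 and 7187) consumed about 120% of the requirement set by the National Research Council (NRC), and the restricted cows (6877, 6952, 7045 and 7105) consumed about 80%. Each liver RNA was hybridised on 2 slides, once in each dye orientation, together with a reference standard pooled from tissues other than liver. Every value is therefore a log2 ratio of liver over that reference: 0 stands for equal signal, and a difference of 1 stands for a ratio of 2. Calving, the onset of lactation and the end of the dry period cannot be told apart in a comparison of these days, because all fall between them in every cow. The diet is described for the dry period, so any change of feeding at its end cannot be told apart either.

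In dairy cows, calving marks the switch from gestation to milk synthesis. The liver then takes up fatty acids released from adipose tissue, oxidises or re-esterifies them, makes glucose from propionate, lactate and amino acids, and exports plasma proteins. An acute phase response of the liver, in which some secreted proteins are made in larger and others in smaller amounts, is also well known around calving.

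No element passed the adjusted threshold of 0.05 in the ad libitum cows, so the differences below are measured values and not calls. Limma tested 8177 spotted cDNA elements, and the smallest adjusted p was 0.269. At an unadjusted p under 0.05 there were 237 elements (2.90%), of which 87 were higher on day 1 (1.06%) and 150 were lower (1.83%). The 2.90% is below the share of 0.05 that this threshold gives on average where no element differs. The higher ones made 36.7% of the elements under it, 49% from the arrays with liver in Cy3 alone and 26.7% from those with liver in Cy5 alone. The largest difference among the named genes was a higher ratio of GPX3, a secreted peroxide-reducing enzyme. Lower on day 1 in every cow were CAT, the peroxisomal enzyme that breaks down hydrogen peroxide, and SLC10A1, the main bile acid uptake transporter of hepatocytes. Alternatives gave 0 to 4 elements: 2 (PAG12 and IFT43) passed after quantile normalization, 1 (PAG12) with all 14 groups of the series in the fit, and 4 (GPX3, IFT43, LOC327709 and PAG12) with sample weights estimated from the data.

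The agreement between dye orientations differed between days and bears on every value below. Both orientations of a cow and day, after removal of the mean dye effect of each element, correlated at 0.476 to 0.802 over elements on days -14 and 1 of the ad libitum cows. On days -65, -30, 28 and 49 of the same cows the range was 0.785 to 0.870, on their day 14 it was 0.647 to 0.8292, and in the restricted cows on days -14 and 1 it was 0.726 to 0.867. The lowest value belonged to cow 6886 on day 1, followed by the same cow on day -14 (0.614) and cow 7161 on day 1 (0.635). The channel text of 1 array, that of cow 6886 on day 1 with liver in Cy5, names Cy5 for both channels, and its title and label fields were followed. The hepatocyte markers measured were well above the reference in RBP4 (5.72 ± 0.18 on day -14, SD, n = 4) and TF (4.22 ± 0.25), while APOA1 was at 0.52 ± 0.28.

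As a check that needs no model, each dye orientation was also compared with itself across calving, which gave 8 pairs of arrays, 2 for each cow. Among the 7932 elements measured in all 8 pairs, 65 were higher on day 1 in every pair (0.819%) and 73 were lower in every pair (0.920%). In the restricted cows 165 and 156 elements did so among the 7893 measured. The 138 elements with 1 sign in every pair made 1.74%. A pair that was level to 6 decimals counted in neither direction. Over the means of both orientations, 549 elements (6.92%) were higher in 4 of 4 cows and 541 (6.82%) were lower. Random signs in 4 independent cows would give shares close to these. A common direction in every cow is therefore a description below and no evidence of a change by itself. Leaving out a cow, with 6 pairs left, gave 140 to 255 higher and 163 to 241 lower elements. The difference from the arrays with liver in Cy3 correlated with that from the arrays with liver in Cy5 at 0.395 over these elements for the mean of 4 cows. Cow by cow it was 0.00 in cow 6886, 0.25 in cow 7050, 0.00 in cow 7161 and 0.53 in cow 7187. Between cows, the differences correlated at -0.262 to 0.297. Elements are not independent replicates, and those of a cow share slides and dyes, so these correlations are descriptions.

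**Figure D1:**
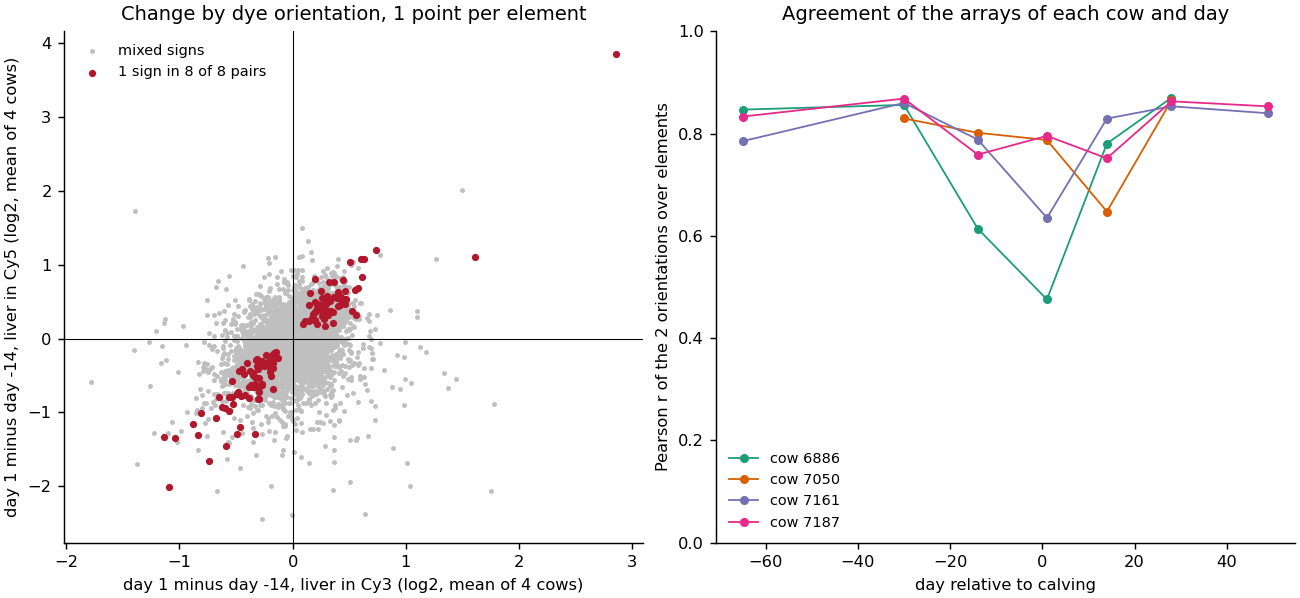
Left, day 1 minus day -14 (log2, mean of 4 ad libitum cows) from arrays with liver in Cy3 (x axis) and in Cy5 (y axis), 1 point per element; red points have 1 sign in 8 of 8 array pairs. Right, Pearson correlation over elements between both orientations of each cow and day, dye effect removed (y axis), against day relative to calving (x axis): the lowest point is cow 6886 on day 1, at 0.476.

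Peroxide-handling enzymes held both the largest higher and one of the clearest lower values. GPX3 reduces peroxides with glutathione and is secreted into plasma. In the order of cows 6886, 7050, 7161 and 7187, which is kept below, its log2 ratio was 2.95, 0.04, -0.39 and 1.05 on day -14, and 4.59, 4.61, 5.39 and 2.48 on day 1. All 4 cows were higher on day 1, as were 8 of 8 array pairs, but the groups overlapped, because cow 7187 on day 1 lay below cow 6886 on day -14. In cow 6886 the arrays with liver in Cy3 gave 0.07 and those with liver in Cy5 3.21. The day 1 array of the latter has the conflicting channel text. The difference over the 4 cows was 3.35 ± 0.84 (standard error, SE, from the fit). The SD of GPX3 between cows was 1.49 on day -14 and 1.25 on day 1.

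CAT was far above the reference on both days. It read 5.75, 5.78, 5.97 and 5.85 on day -14 and 4.82, 5.14, 4.53 and 4.06 on day 1. The groups did not overlap: the lowest cow of day -14 was above the highest of day 1, in 8 of 8 array pairs. The difference was -1.20 ± 0.27, with an adjusted p of 0.729 by limma. Non-overlap in the lower direction was found for 106 of 7932 elements (1.34%), and in the higher direction for 126 (1.59%).

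PRDX4, the peroxiredoxin of the endoplasmic reticulum (ER), was below the reference on day -14 (-1.12, -1.17, -0.66 and -0.76) and near it on day 1 (-0.21, 0.10, 0.15 and -0.37). All cows of day 1 were above all cows of day -14, and the difference was 0.84 ± 0.31. For PRDX4 in cow 6886, liver in Cy3 gave 0.02 and liver in Cy5 1.81. MSRA, which reduces oxidised methionine, moved from 2.70, 2.78, 3.84 and 3.39 to 2.17, 2.32, 2.84 and 3.17, lower in every cow and every array pair, with overlapping groups (-0.56 ± 0.23). Of the 25 measured genes of peroxide and redox defence, 13 were higher on day 1, and the median difference was 0.06, beside -0.001 over all 8177 elements. The list thus held members far apart in both directions around a median near that of all elements.

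Genes of the secretory pathway, through which liver makes and exports plasma proteins, were mostly higher on day 1. SSR3, a subunit of the translocon-associated complex that helps nascent proteins enter the ER, read -0.07, -0.34, 0.22 and 0.47 on day -14 and 0.77, 1.00, 1.24 and 1.07 on day 1. The groups did not overlap, 7 of 8 array pairs were higher, and the difference was 0.95 ± 0.26. For SSR3 in cow 6886, liver in Cy3 gave -0.08 and liver in Cy5 1.77. P4HB, a disulfide isomerase of the ER, went from 0.27, 0.35, 0.93 and 1.06 to 0.81, 1.17, 1.71 and 1.82. Each cow was higher on day 1, by 0.54 to 0.83 in the mean of both orientations, and 8 of 8 array pairs were higher. For P4HB in cow 6886, liver in Cy3 gave 0.16 and liver in Cy5 0.92. Cows differed more from each other than days did, so that the groups overlapped (0.72 ± 0.28). DNAJB11, a co-chaperone of the ER, went from -0.01, 0.16, 0.44 and 0.25 to 1.29, 0.65, 0.79 and 0.53, and these groups did not overlap (0.60 ± 0.24). It was higher in 7 of 8 array pairs, but the arrays with liver in Cy3 gave 0.09 and those with liver in Cy5 1.12, and in cow 6886 the values were -0.22 and 2.81.

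Not every member of these lists was higher. RNF5, a ubiquitin ligase of the ER membrane, was lower in 4 of 4 cows and 8 of 8 array pairs: 1.11, 1.41, 1.70 and 1.63 on day -14 against 0.92, 1.09, 0.85 and 1.50 on day 1 (-0.37 ± 0.17). DERL2, a channel subunit of ER-associated degradation, was higher in every cow by 0.31 ± 0.16. GANAB, a glucosidase that trims N-glycans, and DAD1, a subunit of the oligosaccharyltransferase, were higher in every cow by 0.40 ± 0.18 and 0.45 ± 0.23. SEC11A, a catalytic subunit of the signal peptidase, was lower in 3 of 4 cows (-0.39 ± 0.20), and its other element was at 0.24 ± 0.33.

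Counted over whole lists, 20 of 24 genes of ER folding and the unfolded protein response were higher on day 1, with a median of 0.19. The medians within cows were 0.44, 0.30, 0.17 and 0.10, and the list median was 0.31 without cow 7187, 0.09 from liver in Cy3 and 0.36 from liver in Cy5. Of these genes 2 were higher and 1 was lower at an unadjusted p under 0.05, beside 1.06% and 1.83% of all elements, and none passed after adjustment. ER translocation, signal peptidase and N-glycosylation had 16 of 23 genes higher and a median of 0.23, which was 0.61 in the restricted cows. Its within-cow medians were 0.45, 0.26, 0.18 and -0.05, so cow 7187 did not share the direction. This list median was 0.09 without cow 6886, 0.105 without the day 1 of that cow, 0.09 from liver in Cy3 and 0.37 from liver in Cy5. COPI and COPII vesicle traffic, which moves cargo between ER and Golgi, had 22 of 26 genes higher and a median of 0.20, with within-cow medians of 0.32, 0.23, 0.09 and 0.17. Without cow 6886 it was 0.13, without cow 7050 0.12, and from liver in Cy3 0.11. No vesicle gene reached an unadjusted p under 0.05. The closest was ARF4, a GTPase of the Golgi, with -0.83, -1.03, -0.70 and -0.91 on day -14 and 0.11, -0.22, -0.12 and -0.79 on day 1, where cow 7187 was nearly level and the others higher (0.61 ± 0.29). TMED9, a cargo receptor of these vesicles, was higher in 8 of 8 array pairs on both of its elements (0.46 ± 0.28 and 0.40 ± 0.28). The retrieval receptors KDELR2 and KDELR3 were higher in every cow, by 0.40 ± 0.23 and 0.21 ± 0.15, though the second element of KDELR3 was at -0.15.

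**Figure D2:**
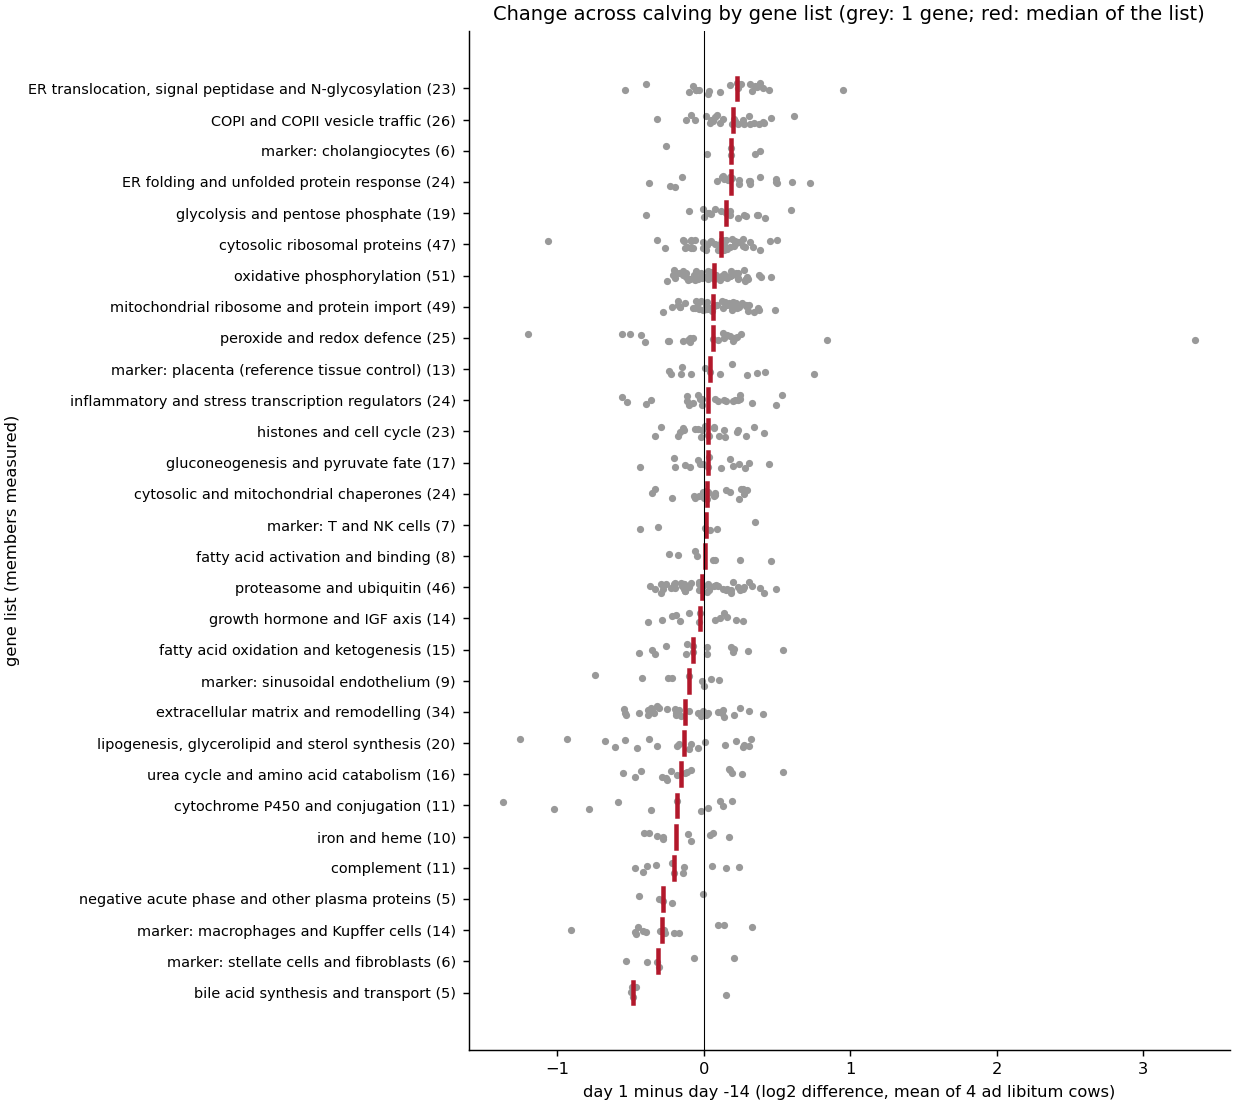
Day 1 minus day -14 in the ad libitum cows (x axis, log2 difference, mean of 4 cows) for each measured gene (grey points) of each gene list with 5 or more measured members (y axis, number of members in brackets); red bars are list medians. List medians run from -0.48 for bile acid synthesis and transport to 0.23 for ER translocation, signal peptidase and N-glycosylation, beside -0.001 over all elements.

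Transporters of bile acids and organic anions had the lowest list median, at -0.48 over 5 measured genes. SLC10A1 read 4.04, 3.88, 4.33 and 4.26 on day -14 and 3.25, 3.62, 3.66 and 4.04 on day 1. It was lower in every cow and 8 of 8 array pairs, with overlap between groups through cow 7187 on day 1 (-0.49 ± 0.20). ABCC3, an exporter of the basolateral membrane, read 0.17, -0.07, 0.15 and 0.04 and then -0.56, -0.47, -0.57 and -0.08, lower in 8 of 8 array pairs with no overlap (-0.49 ± 0.19). ABCG2, an exporter of the canalicular membrane, read 2.35, 3.15, 3.20 and 2.71 and then 2.01, 2.61, 2.63 and 2.25, again lower in all 8 pairs (-0.48 ± 0.24). SLCO2B1, an organic anion uptake transporter, was level in cows 7050 and 7187 and much lower in cow 6886, where it went from 2.55 to 1.04 (-0.46 ± 0.27). ABCC2, the other canalicular exporter measured, was at 0.15, with 2 of 4 cows higher. The median was below 0 in each of the 4 cows (-0.73, -0.26, -0.57 and -0.12), and 3 of the 5 genes were lower in every array pair, beside 0.920% of all elements. That share was larger among liver-enriched elements: 20 of the 206 with a mean log2 ratio over 2 on days -65, -30, 28 and 49 were lower in every pair. SLC10A1 and ABCG2 read above 2 on day -14, and ABCC3 was near 0.

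**Figure D3:**
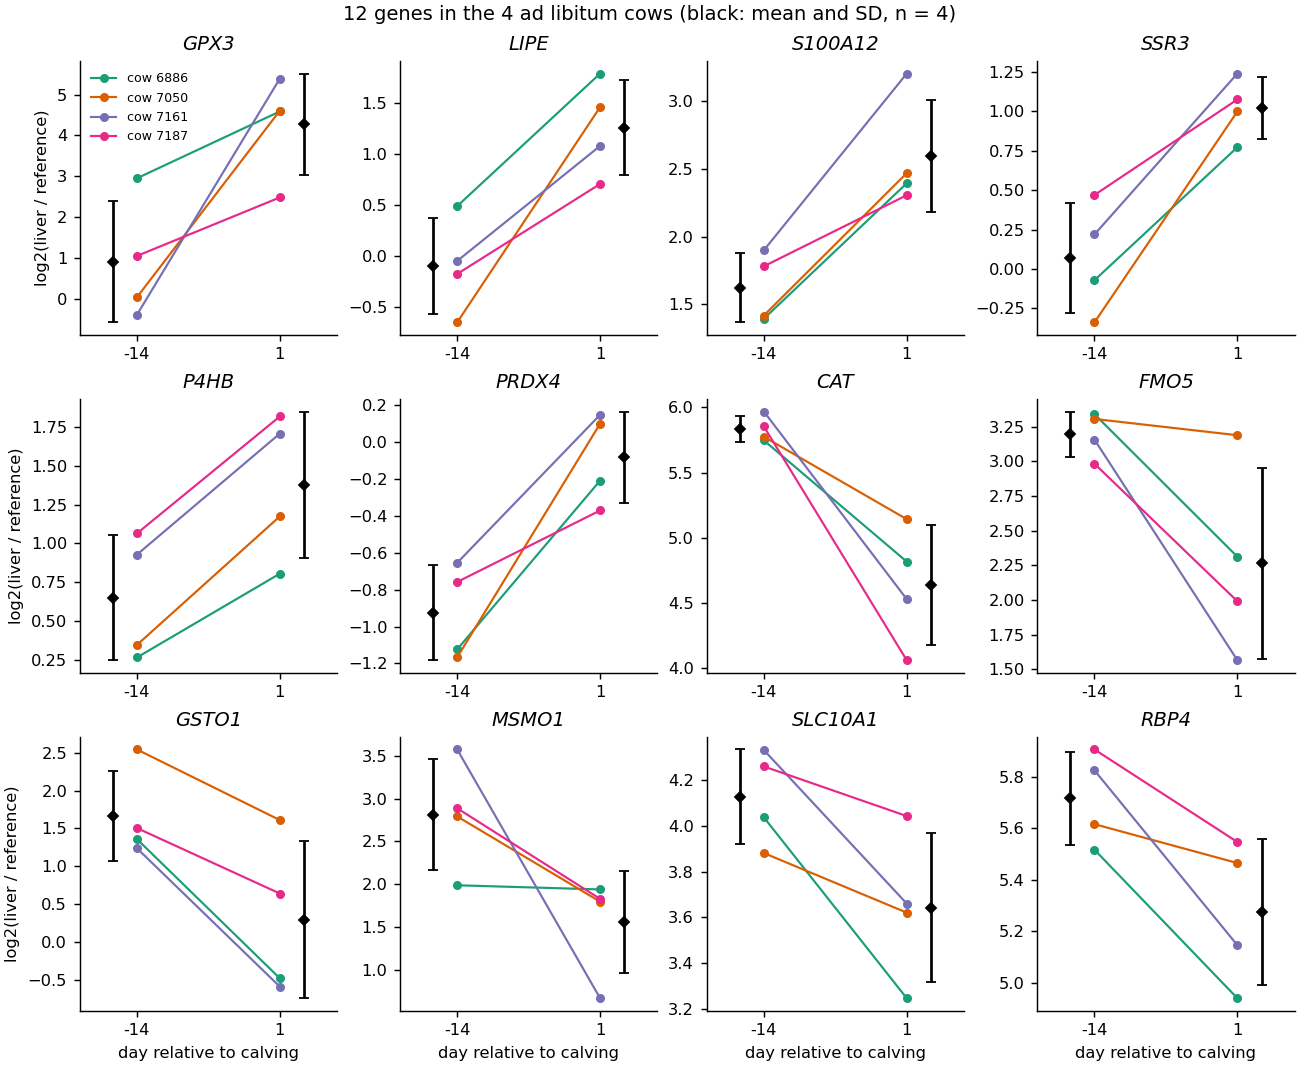
Log2 ratio of liver over reference (y axis) on days -14 and 1 (x axis) for 12 genes; each coloured line is 1 ad libitum cow, and black diamonds with bars are the mean and SD of 4 cows. GPX3 is higher on day 1 in every cow (mean 0.91 on day -14 and 4.27 on day 1), and CAT is lower in every cow (5.84 and 4.64); FMO5 is shown for 1 of its 2 elements.

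Enzymes of drug and xenobiotic metabolism included several of the largest lower values. FMO5, a flavin monooxygenase of the liver, was represented by 2 elements. On one it read 3.34, 3.31, 3.16 and 2.98 on day -14 and 2.31, 3.19, 1.57 and 1.99 on day 1 (-0.93 ± 0.26), and on the other 4.42, 4.49, 4.64 and 3.88 and then 3.26, 4.28, 3.001 and 2.79 (-1.02 ± 0.36). On both elements cow 7050 was lower by far less than the other 3 cows. GSTO1, an omega-class glutathione transferase, read 1.36, 2.54, 1.24 and 1.51 and then -0.48, 1.61, -0.59 and 0.64, lower in every cow with overlapping groups (-1.37 ± 0.44). CYB5A, the electron donor cytochrome b5, was lower in every cow (5.01 ± 0.28 and then 4.23 ± 0.58, SD, n = 4), as was ALDH2, the mitochondrial aldehyde dehydrogenase (3.71 ± 0.53 and then 3.13 ± 0.52). Cytochrome P450 and conjugation genes numbered 11, of which 4 were higher on day 1, and their median was -0.18. The median was below 0 in each of the 4 cows. It ranged from -0.442 to -0.000563 over the alternatives.

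Over the 20 genes of lipogenesis, glycerolipid and sterol synthesis, 7 were higher on day 1, beside 4081 of all 8177 elements. At an unadjusted p under 0.05 by limma, 2 were lower, beside 1.83% of all elements. The list had a median of -0.13, or -0.03 without cow 7161. Its 4 members of smallest p were MSMO1, IDI1, NSDHL and LPIN3. MSMO1, a sterol C4-methyl oxidase of the cholesterol pathway, read 1.99, 2.79, 3.57 and 2.89 on day -14 and 1.94, 1.80, 0.67 and 1.83 on day 1. Cow 6886 was nearly level and cow 7161 was lower by the most, and the groups did not overlap (-1.25 ± 0.46). IDI1, the isopentenyl-diphosphate isomerase of the same pathway, was lower in every cow (0.75, 1.14, 1.95 and 1.46 and then 0.06, 0.35, 0.75 and 0.43, a difference of -0.93 ± 0.36), and its second element was at -0.60 ± 0.52. NSDHL, which acts beside MSMO1 in removing the C4 methyl groups, was lower in 3 of 4 cows (-0.67 ± 0.35). LPIN3, a phosphatidate phosphatase, was higher in 3 of 4 cows (0.31 ± 0.17). SREBF1, the transcription factor that drives lipogenic genes, was at 0.01 ± 0.42, with its sign changing between alternatives.

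For fatty acid use, ACADVL, the very-long-chain acyl-CoA dehydrogenase of mitochondrial beta-oxidation, was higher in every cow and 8 of 8 array pairs, from 2.12, 1.70, 2.35 and 2.16 to 2.46, 2.40, 2.82 and 2.82. These groups did not overlap (0.54 ± 0.22). CPT1A, which carries long-chain fatty acids toward mitochondrial oxidation, showed no common direction on its elements, with -0.11 ± 0.19 on one and 0.18 ± 0.17 on the other. ACSL1, which activates long-chain fatty acids, was higher in 3 of 4 cows and 7 of 8 array pairs (0.46 ± 0.34). HADH, ECI1 and ETFA, which act later in beta-oxidation or pass on its electrons, were lower in 3 of 4 cows each, at -0.44 ± 0.25, -0.33 ± 0.26 and -0.35 ± 0.30. Of the 15 genes of fatty acid oxidation and ketogenesis 7 were higher, with a median of -0.07. The 8 genes of fatty acid activation and binding had a median of 0.01.

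PC, pyruvate carboxylase, opens the route from lactate and alanine to glucose. It read 0.43, -0.09, -0.07 and -0.21 on day -14 and 0.58, 0.47, 0.63 and 0.15 on day 1, higher in every cow and 8 of 8 array pairs, with overlap through cows 6886 and 7187 (0.44 ± 0.21). MDH1, the cytosolic malate dehydrogenase, was higher in every cow by 0.28 ± 0.19, and the mitochondrial MDH2 in 3 of 4 by 0.20 ± 0.19. SUCLG2, a subunit of succinyl-CoA ligase through which propionate carbon passes, was at -0.44 ± 0.34, a mean that rests on cow 7187 (1.82 and then 0.36) and cow 7161 (2.18 and then 1.57). Gluconeogenesis and pyruvate fate had 9 of 17 genes higher and a median of 0.03.

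Glycolysis and the pentose phosphate pathway had 16 of 19 genes higher, with a median of 0.15, which was 0.05 without cow 7187, 0.25 without cow 7161 and 0.03 with sample weights. PFKFB3, which sets the level of fructose 2,6-bisphosphate, read -0.09, -0.12, -0.06 and -0.15 and then 0.36, 0.08, 0.45 and 0.37, without overlap and in 8 of 8 array pairs (0.42 ± 0.17). PGK1, phosphoglycerate kinase, read -1.94, -1.43, -1.54 and -1.49 and then -1.36, -1.34, -1.17 and -1.07, without overlap and in 7 of 8 pairs, with the remaining pair level (0.37 ± 0.16). LDHA, a lactate dehydrogenase subunit, was higher in 3 of 4 cows and lower in cow 7187 (0.60 ± 0.34). PFKP, a phosphofructokinase, was higher in 3 of 4 cows (0.29 ± 0.14). The second element of PFKFB3 was at -0.09 ± 0.15.

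In amino acid catabolism, MCCC1, a carboxylase subunit of leucine breakdown, was lower in every cow, from 1.36, 1.47, 1.53 and 1.52 to 0.90, 1.23, 0.72 and 0.83, without overlap (-0.55 ± 0.17). IVD, which acts just before it in leucine breakdown, was lower in 3 of 4 cows (-0.29 ± 0.21), and its second element was at 0.03. AHCY, which hydrolyses S-adenosylhomocysteine, was lower in every cow (-0.43 ± 0.26), and MAT2A, which makes S-adenosylmethionine, was higher in 3 of 4 (0.54 ± 0.30). Of 16 genes of the urea cycle and amino acid catabolism 5 were higher, with a median of -0.15 that was 0.0016 without cow 7161. In iron and heme metabolism, 3 of 10 were higher and the median was -0.19, or -0.05 without cow 7161. ALAS1 and ALAD, the first enzymes of heme synthesis, were lower in 3 of 4 cows each, at -0.41 ± 0.19 and -0.32 ± 0.18. SLC40A1, the iron exporter, was at -0.37 ± 0.31.

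Of the 5 genes of negative acute phase and other plasma proteins none was higher on day 1 in the mean of 4 cows. RBP4, the retinol carrier and a negative acute phase protein, read 5.52, 5.62, 5.83 and 5.91 on day -14 and 4.94, 5.46, 5.15 and 5.55 on day 1, lower in 8 of 8 array pairs with overlapping groups (-0.44 ± 0.21). TF, transferrin, was lower in 4 of 4 cows (4.22 ± 0.25 and then 3.94 ± 0.16, SD, n = 4). RARRES2, or chemerin, and PROS1, protein S, were at -0.30 ± 0.24 and -0.22 ± 0.47. The median of the list was -0.27, or 0.0434 under quantile normalization, -0.18 without cow 7161, -0.09 from liver in Cy3 and -0.52 from liver in Cy5. Its within-cow medians were -0.16, 0.32, -0.67 and -0.20, so cow 7050 did not share the direction. APOA1, the main protein of high-density lipoprotein, was higher in 4 of 4 cows, from 0.52 ± 0.28 to 1.14 ± 0.20 (SD, n = 4). Among the 4 positive acute phase genes 2 were higher, with a median of 0.05.

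Inflammatory and stress regulators had 12 of 24 genes higher and a median of 0.03. STAT3, the transcription factor that carries interleukin-6 signals in hepatocytes, read 1.00, 0.70, 1.30 and 0.99 and then 1.61, 1.27, 1.48 and 1.76. It was higher in every cow and 7 of 8 array pairs, with groups that overlapped by little (0.54 ± 0.19). NR3C1, the glucocorticoid receptor, was lower in 8 of 8 array pairs, but its mean rests on cow 7187, which went from 0.41 to -0.87, while the others went from 0.63, 0.50 and 0.99 to 0.44, 0.43 and 0.29 (-0.56 ± 0.28). IRF7, a regulator of interferon genes, was lower in 3 of 4 cows (-0.53 ± 0.25). CCL2, a chemokine for monocytes, was higher in 3 of 4, with most of the difference from cow 7050 (-0.97 and then 0.59).

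S100A12 is a calcium-binding protein that neutrophils and monocytes hold in large amounts. It read 1.39, 1.42, 1.90 and 1.78 on day -14 and 2.39, 2.47, 3.20 and 2.31 on day 1. The groups did not overlap, 8 of 8 array pairs were higher, and the difference was 0.97 ± 0.29. It was the only neutrophil marker measured, so other neutrophil genes could not be set beside it, and whether blood cells in the tissue moved with it was not tested. In bulk liver, more cells of a type and more RNA per cell cannot be told apart.

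Macrophage and Kupffer cell markers, which include the complement genes C1QA, C1QB and C1QC, were lower for 11 of 14 genes, with a median of -0.28. Their mean level lay between 1.81 and 2.51 over the cows of day -14 and between 1.70 and 1.90 over those of day 1. C1QB read 3.62, 3.60, 4.35 and 4.39 and then 3.35, 3.18, 3.72 and 4.05, lower in 8 of 8 array pairs with overlapping groups (-0.41 ± 0.22). C1QC was at -0.47 ± 0.24, FCGR3A, an Fc receptor, at -0.45 ± 0.24 in 8 of 8 pairs, and CD74, the invariant chain of antigen presentation, at -0.39 ± 0.21. MSR1, a scavenger receptor, was at -0.90 ± 0.37, almost all of it from cows 7161 and 7187 (2.02 and 1.45, then -0.20 and 0.04). The within-cow medians of the list were -0.12, 0.04, -0.69 and -0.33, so cow 7050 did not share the direction, and without cow 7161 the median was -0.16. Of the 11 complement genes 3 were higher and the median was -0.20. Within cows the complement median was -0.11, 0.07, -0.63 and 0.12, below 0 in 2 of 4 cows, and it was 0.08 without cow 7161 and 0.04 under quantile normalization. C1R, made mainly by hepatocytes, was at -0.32 ± 0.25. CD59, a membrane inhibitor of complement found on many cells, was at -0.39 ± 0.21. The part that macrophage content had in the complement values was not tested.

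Other cell markers gave small or scattered values. Stellate cell and fibroblast markers had a median of -0.31 over 6 genes, with within-cow medians of -0.30, 0.71, 0.08 and -1.06, and the median was 0.18 without cow 7187. COL1A2, a chain of type I collagen, lay far below the reference on both days and ranged from -4.97 to -1.48 over cows of day -14 (-0.53 ± 0.72). DES, desmin, was lower in every cow (-0.39 ± 0.17), THY1 was higher in every cow (0.21 ± 0.12), and DCN, decorin, was at -0.32 ± 0.35. Endothelial markers had a median of -0.10 over 9 genes, with FLT1 (-0.74 ± 0.34) and TEK (-0.42 ± 0.31) lower, CDH5 at -0.22 ± 0.22 and LYVE1 at -0.24 ± 0.30. T and NK cell markers had a median of 0.02 over 7 genes and cholangiocyte markers 0.19 over 6. Genes of the extracellular matrix had 12 of 34 higher and a median of -0.13, or 0.04 without cow 7187. The smallest p belonged to LGMN, FBLN2, MFAP4 and TNC at -0.54 ± 0.27, -0.54 ± 0.28, -0.38 ± 0.22 and -0.44 ± 0.27. The second element of TNC was at 0.39.

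Genes of protein synthesis and respiration were slightly more often higher than lower. Cytosolic ribosomal proteins were higher for 33 of 47 genes, with a median of 0.12 and within-cow medians of 0.17, 0.42, -0.15 and 0.04. The list median was -0.01 without cow 7050 and 0.21 without cow 7161. RPLP2 read -1.15, -1.33, -1.07 and -0.83 and then -0.80, -0.75, -0.69 and -0.12, without overlap (0.50 ± 0.21), and RPS9 was higher in 8 of 8 pairs as well (0.39 ± 0.17). RPL3 was at 0.32 ± 0.19 and RPL15 at -0.26 ± 0.16. Oxidative phosphorylation was higher for 31 of 51 genes, with a median of 0.07. Its leading members were UQCR11 (0.46 ± 0.23, 8 of 8 pairs), NDUFB10 (0.38 ± 0.20), NDUFA7 (0.39 ± 0.21) and UQCRC1 (0.30 ± 0.17), subunits of respiratory complexes. Mitochondrial ribosome and import genes had 35 of 49 higher and a median of 0.07. The proteasome and ubiquitin list (22 of 46 higher, median -0.01), the chaperones outside the ER (16 of 24, 0.03), the growth hormone and IGF axis (6 of 14, -0.03) and the histones and cell cycle genes (13 of 23, 0.03) lay near the median of all elements. Within the last list, MCM4, a subunit of the replicative helicase, was higher in every cow (0.41 ± 0.16), while MCM2 was at -0.33 ± 0.24, and the histone genes H2BC21 and H2AC20 were at -0.29 ± 0.16 and 0.23 ± 0.14.

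The remaining genes with the smallest p belong to no common pathway. PAG12 encodes a pregnancy-associated glycoprotein known from the placenta. Its ratio was -0.10, -0.01, -0.06 and 0.20 on day -14 and 0.65, 0.65, 0.67 and 1.08 on day 1, without overlap, and higher in 7 of 8 array pairs (0.76 ± 0.14, adjusted p = 0.276 by limma). Liver in Cy3 gave 0.52 and liver in Cy5 1.00 for PAG12, and in cow 6886 the values were -0.08 and 1.59. Of 13 placental genes measured 8 were higher, with a median of 0.05, and other glycoproteins of the family were lower or level (PAG8 at -0.08, PAG10 at -0.23 and PAG11 at -0.23). CSH2, placental lactogen, was at 0.37 ± 0.27, HSD3B1, a steroid dehydrogenase, at 0.42 ± 0.22, and CYP19A1, aromatase, at 0.20 ± 0.22. The tissues of the reference are named nowhere in the labels beyond the absence of liver, and a cDNA of this family may bind transcripts of related members.

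LIPE, hormone-sensitive lipase, read 0.49, -0.65, -0.04 and -0.17 and then 1.79, 1.46, 1.08 and 0.71, without overlap and in 8 of 8 pairs (1.35 ± 0.42). Its second element was at 0.06 ± 0.21, so the elements disagreed. PTPN1, a phosphatase of the insulin receptor, was at 0.50 ± 0.16 on the element named and at -0.34 ± 0.40 and 0.09 ± 0.13 on its others. MYDGF, a secreted growth factor, was higher by 0.45 ± 0.14, and CCDC167, of unassigned role here, by 0.61 ± 0.20 in 8 of 8 pairs.

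IFT43, a part of the intraflagellar transport complex of cilia, had the smallest p of all elements. It read 0.69, 0.69, 0.55 and 0.65 on day -14 and -0.37, 0.05, -0.01 and -0.34 on day 1. The groups did not overlap and 8 of 8 array pairs were lower (-0.81 ± 0.14, adjusted p = 0.269 by limma). The arrays with liver in Cy3 gave -0.33 and those with liver in Cy5 -1.30. In cow 6886, whose day 1 array with liver in Cy5 has the conflicting channel text, the IFT43 values were -0.06 and -2.06. PTPN21, a phosphatase of the cytoskeleton, read 1.01, 2.62, 1.43 and 1.42 and then -0.76, -0.21, 0.74 and 0.52 (-1.55 ± 0.34). WWTR1, a co-activator of the Hippo pathway also called TAZ, read 3.95, 4.21, 4.34 and 4.15 and then 3.14, 3.44, 3.20 and 2.80 (-1.02 ± 0.29). Both were lower in 8 of 8 pairs and without overlap. LOC327709, a gene with no role assigned here, was lower in 8 of 8 pairs as well, with cow 7187 on day 1 (4.11) above cow 6886 on day -14 (3.87), and the difference was -1.19 ± 0.32. CDAN1, a nuclear protein involved in erythroblast maturation, was at -1.82 ± 0.49 and had no value for cow 7161 on day -14, so its paired values rest on 3 cows. VAMP3, a vesicle fusion protein, was at -0.65 ± 0.19, but lower in 6 of 8 pairs, and its second element was at -0.05 ± 0.14.

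The size and direction of a difference moved with how liver-enriched an element was on the other days. These were days -65, -30, 28 and 49 of the ad libitum cows, and day 14 was not among them. Among 206 elements with a log2 ratio over 2 on the other days, 82.0% were lower on day 1, with a median of -0.26 (in cows -0.18, -0.02, -0.49 and -0.21). Among 428 elements at 1 to 2 the median was -0.11, and among 798 elements under -1 it was 0.03. In the restricted cows the medians of these bins were -0.25, -0.11 and 0.10. With each array brought to the same spread, the median of the most liver-enriched bin was -0.32. The slope of day 1 on day -14 over elements was 0.752, 0.821, 0.755 and 0.814 in the 4 cows. Noise in the day -14 values also lowers such a slope, and its part was not tested. The SD over elements was 0.862, 0.918, 0.946 and 0.908 on day -14 and 0.787, 0.845, 0.843 and 0.950 on day 1, so it rose in cow 7187. CAT, SLC10A1, RBP4, C1QB, FMO5, WWTR1 and CYB5A lie in the liver-enriched range, and their part in this shift over all enriched elements, or its part in theirs, was not tested. The 73 elements lower in every array pair had a median level of 0.73 on other days (61 above the reference), and the 65 higher ones had -0.20 (28 above it).

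Over the 7 sampling days of the ad libitum cows, GPX3, SSR3, S100A12, PRDX4 and PC had their highest mean on day 1, and CAT, SLC10A1, RBP4 and both FMO5 elements their lowest. Agreement between dye orientations was mostly lower on days -14 and 1 than on days -65, -30, 28 and 49. The part of this in the courses given here and in the next paragraph was not tested. GPX3 averaged 0.37 ± 0.53 on day -30, 0.91 ± 1.49 on day -14, 4.27 ± 1.25 on day 1, 3.11 ± 1.81 on day 14 and 1.01 ± 1.03 on day 49 (SD, n = 4, with n = 2 on day 49), but 2.71 ± 2.64 on day -65 (n = 3). SSR3 was highest on day 1 and lowest on day -30 (-0.49 ± 0.13), and it was back at 0.23 ± 0.18 on day 28. S100A12 went from 0.91 ± 0.22 on day -30 to 2.59 ± 0.41 on day 1 and 1.04 ± 0.59 on day 28. CAT was at 5.61 ± 0.08, 5.23 ± 0.28, 5.84 ± 0.10 and 4.64 ± 0.46 on days -65, -30, -14 and 1, and at 5.34 ± 0.45 on day 14. Day -14 was the highest mean of CAT and day 1 its lowest.

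SLC10A1 differed far more before day -14 than across calving. It averaged 6.13 ± 0.15 on day -65 and 5.65 ± 0.10 on day -30, then 4.13 ± 0.21 on day -14 and 3.64 ± 0.33 on day 1, and was back at 6.06 ± 0.56 on day 28. RBP4 was likewise lower on day -14 than on day -30, with 6.40 ± 0.20 on day -30, 5.72 ± 0.18 on day -14, 5.27 ± 0.28 on day 1 and 6.36 ± 0.45 on day 28. IDI1 and IFT43 were above their other days on day -14 alone: IFT43 averaged 0.65 ± 0.07 then and between -0.27 and 0.08 on the other 6 days, day 1 included. PAG12 stayed above its day -14 mean later, at 0.53 ± 0.46 on day 14 and 0.49 ± 0.12 on day 28.

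**Figure D4:**
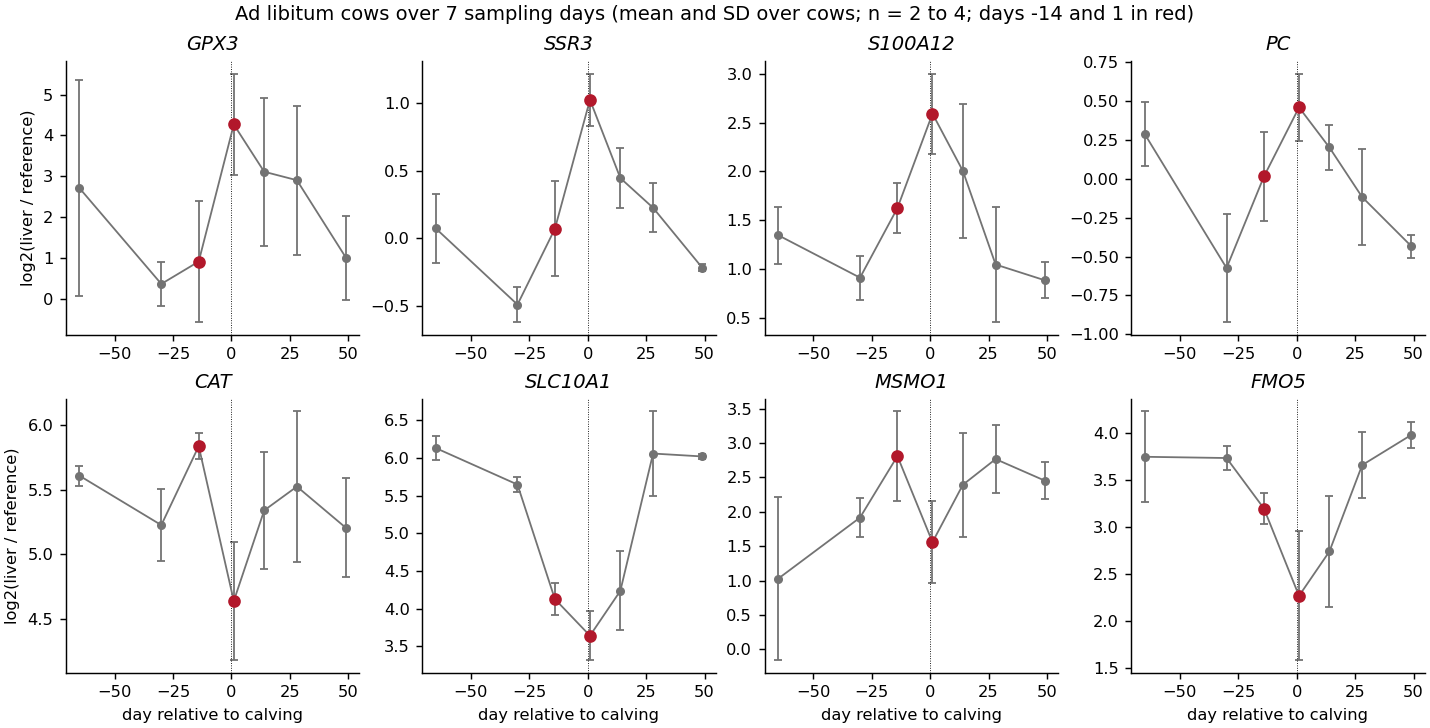
Mean log2 ratio of liver over reference (y axis; bars, SD over 2 to 4 ad libitum cows) on 7 sampling days (x axis, day relative to calving, dotted line at calving) for 8 genes, with days -14 and 1 in red. SSR3, S100A12, GPX3 and PC have their highest mean on day 1, and SLC10A1, CAT and FMO5 their lowest.

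The restricted cows show where the ad libitum values stand beside another feeding level. No element passed in them by limma, but 9 passed with all 14 groups in the fit (SSR3, TSPAN13 and PDHA1 among them), 1 with sample weights and 6 without cow 6877 (DNAJB11 among them). At an unadjusted p under 0.05 there were 895 elements (10.9%), with 497 higher (6.08%) and 398 lower (4.87%). The test of the difference between diets passed for none, with 408 elements (4.99%) at an unadjusted p under 0.05. The 4.99% is near the share of 0.05 that this threshold gives on average where no element differs. In 151 of the 408 (1.85%) the ad libitum change was above the restricted one and in 257 (3.14%) below it. GPX3 was higher by 2.61 ± 0.84 in restricted cows, SSR3 by 0.98 ± 0.26, S100A12 by 0.77 ± 0.29 and DNAJB11 by 1.11 ± 0.24, and the difference in CAT was -0.47 ± 0.27. The difference between diets in the change was 0.75 for GPX3, -0.03 for SSR3, 0.20 for S100A12, -0.50 for DNAJB11 and -0.73 for CAT, with adjusted p of 0.82 to 0.99 by limma. Of the 65 elements higher in every ad libitum array pair 46 were higher in the restricted mean as well, beside 44.9% of all elements, and 48 of the 73 lower ones were lower there, beside 55.1%. Elements with 1 sign in all pairs of both diets numbered 1 higher (REXO2) and 9 lower, RNF5 among them.

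The genes with the smallest p for the difference between diets moved apart in the means. LASP1, an actin-binding protein, was at 0.17 ± 0.26 in ad libitum and -1.06 ± 0.26 in restricted cows, a difference of 1.23. DHRS9, a retinol dehydrogenase, was at 0.17 ± 0.20 and -0.77 ± 0.20 (0.94), PFKP at 0.29 ± 0.14 and -0.40 ± 0.14 (0.69), and PIP4K2C, a lipid kinase, at 0.30 ± 0.12 and -0.28 ± 0.12 (0.58). In the other direction were PTPN21 (-1.55 ± 0.34 and 0.95 ± 0.42, the latter with 2 restricted cows measured on both days), YIPF4, a Golgi protein (-1.20 ± 0.36 and 0.86 ± 0.36), FGL2, a fibrinogen-like protein (-0.74 ± 0.23 and 0.60 ± 0.23), and IFT43 (-0.81 ± 0.14 and -0.01 ± 0.14). Their differences were -2.50, -2.06, -1.34 and -0.80, each with an adjusted p of 0.82. The ad libitum value of YIPF4 was -0.01 from liver in Cy3 and -2.39 from liver in Cy5. For DHRS9 and LASP1 nearly all of the difference lay in the restricted cows.

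**Figure D5:**
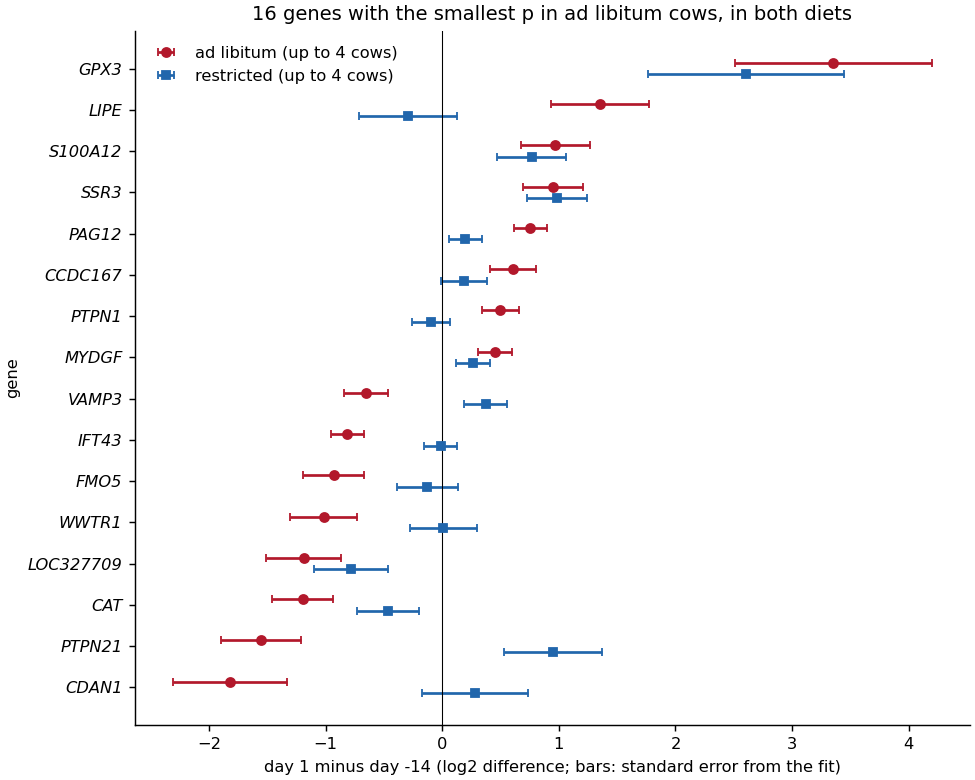
Day 1 minus day -14 (x axis, log2 difference) for the 16 genes (y axis) with the smallest p in the ad libitum cows, 8 in each direction; red circles, ad libitum, and blue squares, restricted (up to 4 cows each, with 3 ad libitum cows on day -14 for CDAN1 and 2 restricted cows with both days for PTPN21; bars, standard error from the fit). GPX3, S100A12, SSR3, LOC327709 and CAT have the same sign in both diets, while LIPE and PTPN21 do not (1.35 and -0.30 for LIPE, -1.55 and 0.95 for PTPN21).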

How the data were processed

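Per the labels, slides of a 2-colour cDNA array were scanned on a Scanarray 4000 and images processed with GenePix 4.0. The authors deposited 1 log2 ratio of Cy5 over Cy3 per spot, 16416 spots (8208 elements in 2 spots) on each of 106 arrays, with 1.23% missing. Background correction, spot filters, normalization and log base are not given in the sources used here. Log2 was inferred from an excess of exact values of 1 and -1, 4.09-fold and 11.7-fold over values beside them, against 0.964-fold for 0.5. Signs were turned to liver over reference, arrays centred on their medians, and spots and both orientations averaged to 1 value per cow and day (both orientations required). Elements needed 2 cows in each of 4 groups.

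Limma 3.58.1 with statmod 1.5.0 (R 4.3.3) fitted the 16 cow-days of both diets on days -14 and 1, with cow as a random block (correlation 0.225), two-sided, Benjamini-Hochberg adjusted over all elements. The labels pair days by animal, and deviations of the same cow correlated at -0.04 to 0.16 in ad libitum cows and at -0.34 to 0.61 in restricted cows. The block correlation was thus estimated over both diets, and it was 0.086 in a fit of ad libitum cow-days only. The fit was also run on simulated data, and its recovery of changes there is not reported here.

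Symbols came from the platform annotation (5598 elements with 1 symbol, 95 with several, 2515 with none listed), and 5591 were found in a RefSeq table of ARS-UCD2.0. Members and gene lists were chosen with earlier results of these data known. Named were, since fewer than 8 elements passed, the 8 smallest p in each direction, the 4 smallest p of each list described, the 4 smallest p in each direction of the difference between diets, and PC, CPT1A, ACSL1, SREBF1, GPX3, SSR3, DNAJB11, CAT, S100A12 and SLC10A1. Beyond this rule, APOA1, ABCC2, PAG8, PAG10, PAG11 and REXO2 were named after their values were seen. A gene in a list is represented by its most complete element. The number of arrays limits the precision.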

Additional observations from a re-analysis of the deposited data

Results flagged for a closer look

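In 12 of 221 groups of 4 cows, 1 cow stood apart from the other 3 by more than Dixon's 95% criterion allows, which chance gives in about 1 in 20 groups. On day 1, cow 7187 stood apart in 6 genes: PAG12 (1.08, next cow 0.67), SUCLG2 (0.357, next 1.57), NR3C1 (-0.866, next 0.29), FBLN2 (1.71, next 0.83), RPLP2 (-0.124, next -0.69) and CSH2 (0.766, next 0.39). Also on day 1, cow 6886 stood apart in KDELR3 (0.292, next 0.15), cow 7161 in MSMO1 (0.67, next 1.80) and cow 7050 in MCM4 (-1.38, next -1.15). On day -14 it was cow 6886 in LOC327709 (3.87, next 4.79), cow 7161 in TEK (3.44, next 2.12) and cow 7050 in LYVE1 (0.449, next 1.50).

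For DHRS9 and PIP4K2C, every ad libitum cow was higher on day 1 and every restricted cow was lower. The change in ad libitum cows minus that in restricted cows was 0.943 and 0.583, and the test of this difference did not pass (adjusted p = 0.82 by limma for both).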

How the results depend on the processing

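The count of 0 elements at an adjusted p under 0.05 in ad libitum cows became 2 with quantile normalization, 1 with all 14 groups in the fit and 4 with sample weights. At an unadjusted p under 0.05, 237 became 373 with quantile normalization, 100 with liver in Cy3 alone, 416 with ad libitum cow-days only, 744 with sample weights and 158 to 315 when 1 cow was left out. With cow as a fixed replicate block it was 224, and with no replicate block 140, and the paired fit changed no adjusted call. For the difference between diets, 408 became 657 with sample weights, 232 with no replicate block, and 162 (without cow 7187), 246 (without 7161) to 974 (without restricted cow 7045). Leaving out 1 cow gave 140 to 255 elements higher and 163 to 241 lower in every array pair, and without centring 26 were lower. Leaving out a cow changes the number of pairs that must share a sign. Of the elements at an unadjusted p under 0.05, 36.7% were higher, 49% with liver in Cy3 alone and 26.7% with liver in Cy5 alone.

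Of 3187 values of named elements over 27 settings 23 changed sign, all of them without a call. Quantile normalization gave C1R 0.00871, RARRES2 0.0774, TF 0.0434, SREBF1 -0.023 and CPT1A 0.0958. TF was 0.00338 with liver in Cy3 alone, TNC 0.0169 on the first spot, FLT1 0.132 on the second, and CPT1A 0.0124 with orientation agreement as a covariate. When 1 cow was left out, DCN ranged from -0.74 to 0.116, COL1A2 from -1.07 to 0.276, LYVE1 from -0.37 to 0.0428, and LASP1 from -0.176 to 0.46, with the changed sign without cow 7187. PROS1 ranged from -0.40 to 0.119 (without cow 7161) and SREBF1 from -0.35 (without cow 7187) to 0.44. SREBF1 was also -0.389 with liver in Cy5 alone, -0.071 with sample weights, -0.483 on the first spot, -0.188 with the covariate, -0.0418 without cow 7161, -0.00325 without cow 6886 and -0.0348 without cow 6886 on day 1, which is both the array of conflicting dye text and the cow-day of agreement under 0.6. The causes were not tested. Leaving out cow-days of agreement under 0.6 before dye effects are removed was not run, since it leaves no cow on day 1. The alternatives on agreement after removal, on cow-days with a value from 1 orientation and on array pairs were chosen after seeing the data. Signal over background was not used here.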

Other observations

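Genes outside the lists appear among the elements with 1 sign in all 8 array pairs, and those named here were chosen after their values were seen. Lower on day 1 were SCP2, a sterol carrier and thiolase of peroxisomes (-1.24), GAMT, the last enzyme of creatine synthesis (-0.88), GALM, galactose mutarotase (-0.72), PEBP1, a kinase inhibitor protein (-0.68), PPP1R3C, a glycogen-targeting phosphatase subunit (-0.60), and LONP2, a peroxisomal protease (-0.36). CAT, SCP2 and LONP2 are proteins of peroxisomes, but the peroxisomal genes measured were not counted, so no share can be given. Their means on day -14 were 5.84, 3.37 and 2.08. Among the 206 elements with a mean log2 ratio over 2 on days -65, -30, 28 and 49, 20 were lower in every array pair. The largest SCP2 difference was that of cow 7187 (3.24 and then 0.76). Higher were WWC3 on both of its elements listed (0.86 and 0.40), BHLHE40, a transcription factor of circadian and stress responses (0.64), TSPAN13, a tetraspanin (0.55), IL1RN, the interleukin-1 receptor antagonist (0.51), PRKCSH, the beta subunit of glucosidase II whose alpha subunit is GANAB (0.46), and SEC16A and SURF4, which act at ER exit sites (0.36 and 0.27). None passed the adjusted threshold by limma.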
